A study of Mus musculus with 20 samples.

Results

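The inward rectifier and KATP channel genes described here are 7 genes chosen by name: the pore genes Kcnj2, Kcnj12, Kcnj8, Kcnj11 and Kcnj15, and the sulfonylurea receptor genes Abcc8 and Abcc9. Values were found for 6 of them among the 33446 genes of the right atrial table and for all 7 among the 41128 genes of the left atrial table. Kcnj11 carried no value in the right atrial table. No threshold on a measured value entered the choice, though earlier results of these data were known when it was made.

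Whole-tissue RNA-seq was performed on atria from adult mice, 8 to 12 weeks old. There were 5 libraries each of Tbx5G125R/+ right atria, control right atria, Tbx5G125R/+ left atria and control left atria. Female sex is stated in the study for the right atria. Tbx5G125R/+ mice were heterozygous for a missense point mutation introduced with CRISPR-Cas9 into Tbx5, which encodes a T-box transcription factor of the atria and conduction system. The study states that the right atrial samples contained sinoatrial node tissue. The labels do not link libraries to animals, so the p-values measure the spread between libraries.

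Inward rectifier potassium channels pass potassium more readily into the cell than out of it, because intracellular polyamines and magnesium block outward flow, and they need the membrane lipid PIP2 to open. Channels of the Kir2 class carry the current that holds the resting potential of working cardiomyocytes. KATP channels combine Kir6 pores with sulfonylurea receptors, which bind nucleotides, and they open when cellular ATP falls. In mouse atria the sarcolemmal KATP channel is known to use SUR1, the product of Abcc8, whereas vascular smooth muscle and pericytes use the products of Kcnj8 and Abcc9.

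The pores of potassium channels carry a selectivity signature, in which a glycine, an aromatic residue and a further glycine line the pore. Windows of 27 coding bases around it in Kcnj2, Kcnj8 and Kcnj11, read from GENCODE M21 on GRCm38 and given 5′ to 3′ on the gene's strand, are shown because they separate the Kir2 pore from the Kir6 pores of KATP channels. Capitals mark the 3 codons of the signature.
Kcnj2, chr11:111072201-111072227, plus strand: cagacaaccattGGCTATGGTttcagg
Kcnj8, chr6:142566442-142566468, minus strand: caagtgaccattGGGTTTGGAgggaga
Kcnj11, chr7:46099490-46099516, minus strand: caggtgaccattGGTTTCGGCgggcgc
The middle codon is TAT, for tyrosine, in Kcnj2, and TTT or TTC, for phenylalanine, in the Kir6 genes Kcnj8 and Kcnj11. The 7 genes lie on 4 chromosomes. Kcnj11 and Abcc8 are neighbours on chromosome 7, on the same strand and 3.76 kb apart, and Kcnj8 and Abcc9 are neighbours on chromosome 6, 16.2 kb apart. Kcnj2 and Kcnj12 lie apart on chromosome 11, and Kcnj15 lies on chromosome 16.

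Depth was 17.5 to 26.8 M reads per right atrial library and 19.1 to 24.8 M reads per left atrial library. Mitochondrial rRNA took 7.28% to 15.7% of the reads of right and 19.5% to 46.7% of those of left atrial libraries. The labels of the atria matched their markers: Bmp10, a right atrial gene, averaged 29847 ± 3502 in Tbx5G125R/+ and 41621 ± 5503 in control right atria (SD, n = 5 each), against 12.9 ± 11.1 in Tbx5G125R/+ and 13.3 ± 10.1 in control left atria. All values are normalised read counts, that is, reads divided by the size factor of the library, and each atrium was normalised on its own. Tbx5 itself averaged 6153 ± 584 in Tbx5G125R/+ and 6113 ± 1088 in control right atria, and 1520 ± 189 in Tbx5G125R/+ and 1459 ± 329 in control left atria, so its total transcript level did not mark the genotype.

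Of the 6 members tested in the right atrium, Kcnj15 rose and none fell. It was 6.01-fold higher in Tbx5G125R/+ than in control right atria (95% confidence interval 4.24 to 8.51), while the pores and receptors of the resting and KATP currents had fold changes between 0.96 and 1.17. Over all genes, 6.23% of the 14288 tested in the right atrium were called (limma with Benjamini-Hochberg adjusted p under 0.05), 3.09% higher and 3.14% lower. At an unadjusted p under 0.05 the 1 member remained Kcnj15, against 21.3% of all genes, and 3 of the 6 members had a positive difference, against 47.4%. In the left atrium none of the 7 members was called by limma at that threshold, where 1.2% of 13192 genes were, 0.758% higher and 0.44% lower, and none had genotypes free of overlap, as 3.47% of genes did. There, 2 members had an unadjusted p under 0.05, against 16.6% of all genes, and they were Kcnj15 and Abcc8, both higher. DESeq2 on the recovered reads called those 2 in the left atrium, whereas edgeR called none. Over all 13192 left atrial genes, DESeq2 called 431 and edgeR 170. All 7 members had a positive difference in left atria, against 49.3% of all genes, and this held for 5 of the 7 once GC trends were removed, when Kcnj11 and Kcnj12 turned negative (-0.10 and -0.0067). Kcnj11 was also negative with DESeq2 (-0.043) and without control 1 (-0.090), and Abcc9 without Tbx5G125R/+ replicate 3 (-0.035) or control 1 (-0.024).

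**Figure D1:**
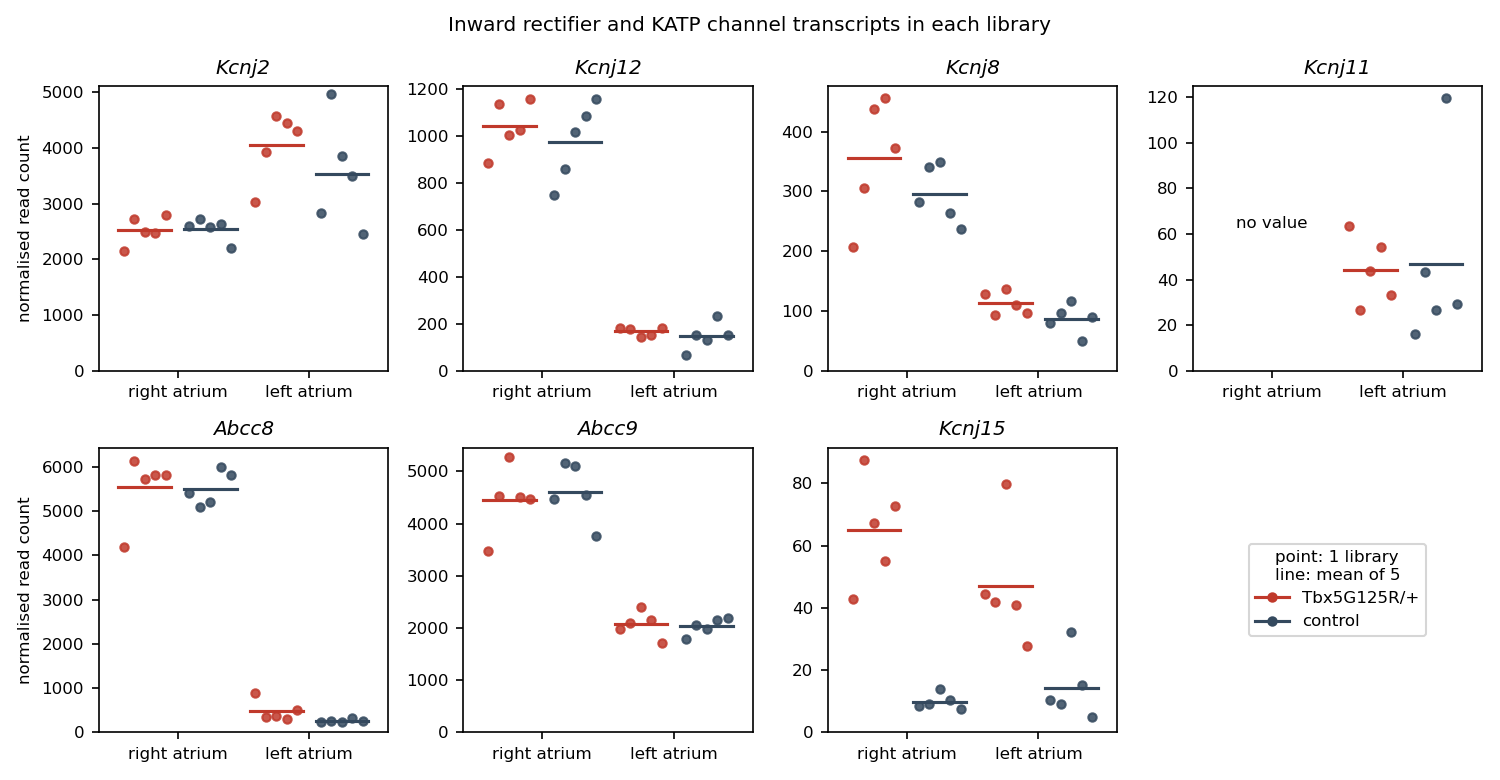
Normalised read count (y axis, linear from 0) of each member in every library, by atrium (x axis), with Tbx5G125R/+ in red and control in blue; points are libraries and lines are means of 5. The atria were normalised separately. The 5 red right atrial points of Kcnj15, from 43.0 to 87.4, lie above all 5 control points, and Kcnj11 has no right atrial value.

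Kcnj15 encodes Kir4.2, a pore best known from epithelia such as that of the kidney. In the right atrium it measured 43.0, 87.4, 67.3, 55.0 and 72.7 in the Tbx5G125R/+ libraries and 8.57, 9.16, 13.9, 10.5 and 7.38 in the control libraries. The genotypes did not overlap, a separation shown by 7.36% of all tested genes. Behind these values stood 37 to 82 reads per Tbx5G125R/+ library and 8 to 11 per control library. The mean was 65.1 ± 16.9 in Tbx5G125R/+ and 9.91 ± 2.50 in control right atria (SD, n = 5 each). The difference was 2.59 ± 0.23 (SE) on the scale of log2(normalised count + 1), with an adjusted p of 1.81e-05 (limma), and it ranked 18th from the top among the 14288 fold changes. It was called in each of the 10 fits that left out 1 library, with differences between 2.47 and 2.72.

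In the left atrium Kcnj15 measured 44.5, 42.0, 79.7, 40.9 and 27.7 in the Tbx5G125R/+ libraries and 10.3, 9.12, 32.2, 15.2 and 4.90 in the control libraries. All 5 Tbx5G125R/+ values lay above the control median, and control 3 overlapped them, since its 32.2 exceeded the lowest Tbx5G125R/+ value. The means were 47.0 ± 19.4 in Tbx5G125R/+ and 14.3 ± 10.6 in control left atria (SD, n = 5 each), a difference of 1.81 ± 0.42 on the log2 scale (SE), or 3.50-fold with an interval of 1.89 to 6.48. The adjusted p was 0.0514 (limma), above the threshold of 0.05, and the call depended on the processing: it was made in 6 of 13 other settings, whose adjusted p-values ran from 0.00335 to 0.0914 over all 13. The adjusted p was 0.0157 without control 3 and 0.0466 without Tbx5G125R/+ replicate 4, and it reached 0.150 without Tbx5G125R/+ replicate 3. The difference between atria, left minus right, was -0.78 ± 0.50 (limma adjusted p = 0.570), so the changes were not shown to differ, and their difference had an interval of -1.82 to 0.26.

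Kcnj15 remained a minor transcript. Relative to exon length it stood at 10.3 normalised counts per kb in Tbx5G125R/+ and 1.57 in control right atria, whereas Kcnj2 stood at 465 per kb in Tbx5G125R/+ and 468 in controls. In left atria it stood at 7.44 in Tbx5G125R/+ and 2.27 in controls per kb. Of its 50-base transcript windows, 5.13% also occur in other annotated genes, and antisense genes (Gm31641 and Gm49643) overlap it. The deposited tables hold no values for those and the sources used here do not state stranded counting, so reads of the 2 strands cannot be told apart.

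**Figure D2:**
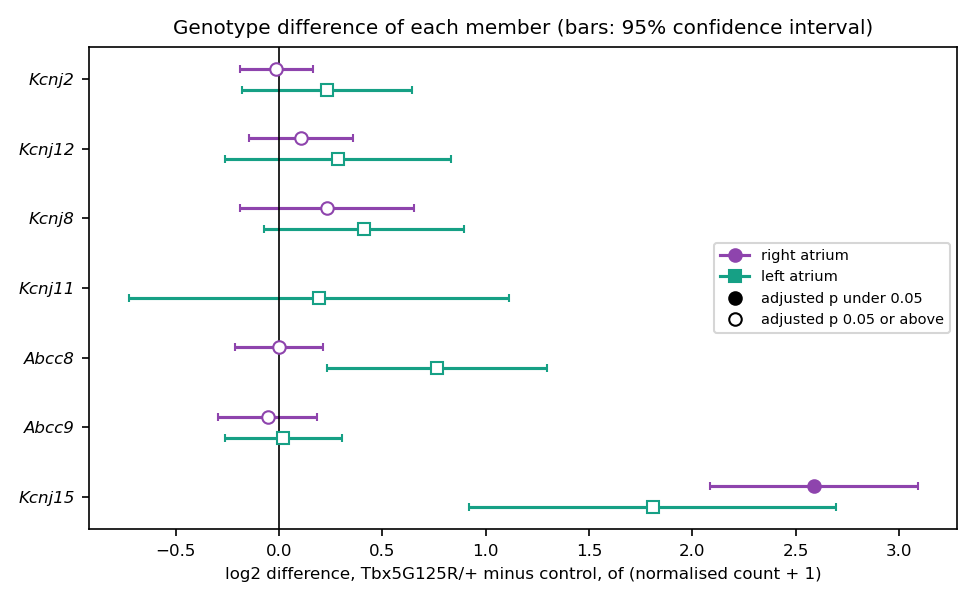
Difference between Tbx5G125R/+ and control atria in log2(normalised count + 1) (x axis) for each member (y axis), with 95% confidence intervals from limma; circles are right and squares left atria, filled where the adjusted p was under 0.05. Only the right atrial Kcnj15 mark is filled, at 2.59, and the left Kcnj15 interval runs from 0.92 to 2.70.

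The genes nearest to Kcnj15 on chromosome 16 did not pass the test in either atrium. Of the 3 protein-coding genes on each side, Vps26c, Dyrk1a, Erg, Ets2 and Psmg1 were tested and had log2 differences from -0.22 (Erg, an endothelial transcription factor) to 0.09 (Ets2) in right atria. The remaining neighbour, Kcnj6, encodes a further inward rectifier and did not reach the mean of 10 needed for the test. The 7 members together have 34 different neighbours by that rule, members beside one another included. Limma called 0 of the 24 tested in right and 0 of the 23 tested in left atria, and edgeR called none. At an unadjusted p under 0.05 there were 1 and 3, against 21.3% and 16.6% of all genes. DESeq2 called 1 in each atrium (Map2k6, near Kcnj2, in right and Abcc8, near Kcnj11, in left atria), against 1312 and 431 of all genes.

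The promoter of Kcnj15 is printed because this was the member that changed. RefSeq promoters (GRCm38.p6, from 250 bases before to 50 after a start site) were found for 5 of the 7 members. Capitals mark the match on the minus strand to the KLF box CACCC.
Kcnj15 promoter, chr16:95257308-95257607, plus strand: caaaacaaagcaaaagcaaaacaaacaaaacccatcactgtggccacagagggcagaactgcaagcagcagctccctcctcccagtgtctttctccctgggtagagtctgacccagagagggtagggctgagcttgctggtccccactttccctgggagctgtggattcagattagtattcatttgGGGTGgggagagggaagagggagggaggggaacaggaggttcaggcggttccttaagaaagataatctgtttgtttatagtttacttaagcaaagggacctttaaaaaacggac
The search covered both strands for the T-box core AGGTGT, the GC box GGGCGG and the KLF box CACCC, none of which contains another. Of 32851 promoters of the same length, 13.7% held AGGTGT, 35.7% GGGCGG and 57.5% CACCC. Among the 5 member promoters only that of Kcnj8 held AGGTGT, on the minus strand from 191 bases before the start. The window of Kcnj12, chr11:61065554-61065853, lies inside the gene as annotated by GENCODE, which starts at 61022564. The start of that annotated gene was therefore not searched. A match is a string of letters and was not tested as a binding site.

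The genes of most alike pattern to Kcnj15 were Neto2, Hydin, Prrg4, Sema3a and Lxn. Likeness was the root mean square difference, over all 20 libraries, of log2(normalised count + 1) centred on the control mean of the atrium. It was 0.57 for Neto2 and 0.68 for Lxn, against a median of 1.69 over the 12537 genes tested in both tables. Sema3a, which encodes a secreted guidance cue for growing axons, averaged 1639 ± 264 in Tbx5G125R/+ and 283 ± 51.6 in control right atria, and 3871 ± 1537 in Tbx5G125R/+ and 688 ± 95.1 in control left atria (SD, n = 5 each). Neto2, an auxiliary subunit of kainate receptors, averaged 854 ± 136 in Tbx5G125R/+ and 161 ± 30.9 in control right atria. All 5 genes were called higher in both atria, with right atrial log2 differences from 2.03 (Lxn) to 2.53 (Sema3a) and left atrial ones from 1.74 (Lxn) to 2.41 (Sema3a). These genes were picked for their likeness, so their direction is fixed by the choice.

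**Figure D3:**
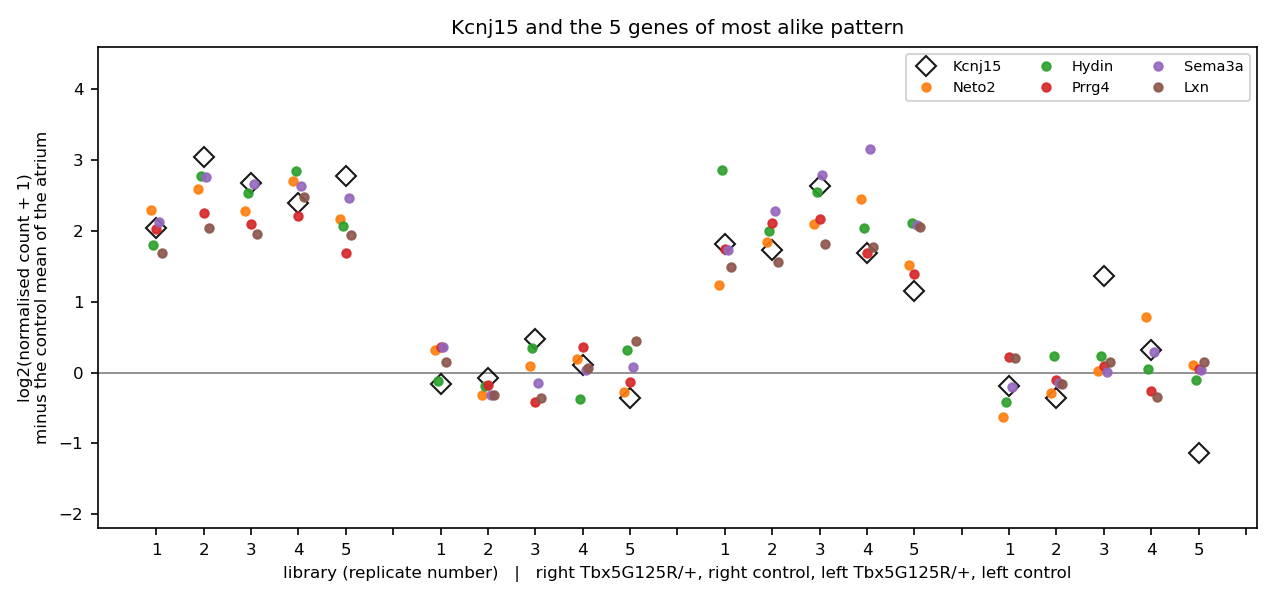
Log2(normalised count + 1) minus the control mean of the atrium (y axis) in each of the 20 libraries (x axis, by replicate number, in blocks of right Tbx5G125R/+, right control, left Tbx5G125R/+ and left control) for Kcnj15 (open diamonds) and the 5 most alike genes (dots). In left control 3 Kcnj15 measured 32.2 normalised counts and its diamond stands above the dots.

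The Kir2 pores, which set the resting potential, did not pass the test in either atrium. Kcnj2, which encodes Kir2.1, measured 2151, 2728, 2484, 2481 and 2804 in Tbx5G125R/+ right atria and 2603, 2731, 2584, 2637 and 2196 in control right atria. The values interleaved, and the difference was -0.01 ± 0.08 on the log2 scale with a fold interval of 0.88 to 1.12 (limma adjusted p = 0.947). In left atria Kcnj2 averaged 4052 ± 627 in Tbx5G125R/+ and 3522 ± 977 in controls (SD, n = 5 each), a difference of 0.23 ± 0.19 with a fold interval of 0.88 to 1.56 (limma adjusted p = 0.502).

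Kcnj12, which encodes Kir2.2, averaged 1039 ± 109 in Tbx5G125R/+ and 973 ± 166 in control right atria (SD, n = 5 each; difference 0.11 ± 0.12, fold interval 0.90 to 1.28, limma adjusted p = 0.637). In left atria it averaged 168 ± 18.0 in Tbx5G125R/+ and 148 ± 59.1 in controls (difference 0.28 ± 0.26, fold interval 0.83 to 1.78, limma adjusted p = 0.532). Its left control values spread widely, between 68.8 in control 1 and 234 in control 4. The ratio of Kcnj12 to Kcnj2 within a library lay between 0.405 and 0.415 in the 5 Tbx5G125R/+ right atria, inside the range of 0.288 to 0.527 of the controls (exact permutation p = 0.302, adjusted p = 0.754 over the 5 ratio tests made).

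Of the KATP pores, Kcnj8, which encodes Kir6.1, measured 207, 306, 437, 456 and 372 in Tbx5G125R/+ right atria and 283, 342, 350, 263 and 237 in control right atria. The Tbx5G125R/+ values lay on both sides of the controls, and the difference of 0.23 ± 0.19 had a fold interval of 0.88 to 1.57 (limma adjusted p = 0.528). In left atria Kcnj8 averaged 113 ± 19.2 in Tbx5G125R/+ and 87.1 ± 24.4 in controls (SD, n = 5 each; difference 0.41 ± 0.23, fold interval 0.95 to 1.86, limma adjusted p = 0.347). All 5 Tbx5G125R/+ left libraries lay above the control median.

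Kcnj11, which encodes Kir6.2, the pore of the cardiomyocyte KATP channel, was measured only in left atria. It gave 63.6, 26.5, 43.8, 54.1 and 33.3 in Tbx5G125R/+ libraries and 16.3, 43.3, 26.5, 120 and 29.4 in control libraries, from 19 to 90 reads each. Control 4 stood apart at 120, the library with the highest mitochondrial rRNA share. The difference was 0.19 ± 0.43 on the log2 scale, with a fold interval of 0.60 to 2.16 (limma adjusted p = 0.809). Without control 4 it was 0.61 ± 0.33 (limma adjusted p = 0.406). The ratio of Kcnj8 to Kcnj11 spanned 2.01 to 3.43 in Tbx5G125R/+ and 0.427 to 4.72 in control left atria (exact permutation p = 0.889, adjusted p = 0.897).

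Abcc9, which encodes SUR2, did not pass the test in either atrium. It averaged 4451 ± 641 in Tbx5G125R/+ and 4611 ± 566 in control right atria (SD, n = 5 each; fold interval 0.82 to 1.14, limma adjusted p = 0.815), and 2070 ± 250 in Tbx5G125R/+ and 2033 ± 159 in control left atria (fold interval 0.83 to 1.23, limma adjusted p = 0.937). The summed level of the 14 pericyte and smooth muscle markers, cells that use Kcnj8 and Abcc9, was 25887 to 32481 in Tbx5G125R/+ and 33773 to 43605 in control right atria. These ranges did not overlap, but they did once Des was left out, a choice made after seeing the values, with 13122 to 18288 in Tbx5G125R/+ and 15080 to 20473 in control right atria. Des encodes desmin, which cardiomyocytes also make, and averaged 14267 ± 1201 in Tbx5G125R/+ and 23100 ± 3702 in control right atria. The list was split in direction, with 3 markers called lower (Des, Cnn1 and Acta2), 2 called higher (Cspg4 and Smtn), 9 not called and none at 0. Cnn1, a smooth muscle gene, averaged 15.9 ± 2.55 in Tbx5G125R/+ and 158 ± 49.0 in control right atria (SD, n = 5 each). Smtn, a smooth muscle gene too, measured 2724 to 4095 in Tbx5G125R/+ and 2176 to 3133 in controls, so smooth muscle genes did not share a direction. Cspg4, a pericyte gene, averaged 1004 ± 167 in Tbx5G125R/+ and 699 ± 79.7 in controls (SD, n = 5 each). The part of pericytes and smooth muscle in the values of Kcnj8 and Abcc9 was not tested. In bulk tissue fewer cells of a type and less RNA per cell cannot be told apart.

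Abcc8, which encodes SUR1, passed the test in neither atrium and differed in its estimate between them. In right atria it measured 4185, 6135, 5729, 5811 and 5800 in Tbx5G125R/+ and 5406, 5096, 5200, 5988 and 5803 in controls, with a difference of -0.00 ± 0.10 and a fold interval of 0.86 to 1.16 (limma adjusted p = 0.997). In left atria it measured 880, 347, 360, 300 and 515 in Tbx5G125R/+ and 235, 267, 224, 332 and 258 in controls. Tbx5G125R/+ replicates 1 and 5 were highest, and replicate 4 lay within the control range. The left difference was 0.76 ± 0.25, or 1.70-fold with an interval of 1.17 to 2.46 (limma adjusted p = 0.190). The left minus right difference was 0.76 ± 0.29 (unadjusted p = 0.0139, adjusted p = 0.560, limma). Over all 12537 genes tested in both tables, 0.0638% were called in that contrast, and no member was. At an unadjusted p under 0.05 it held 1 of 6 members, Abcc8. The share of all genes at that unadjusted threshold was not counted for this contrast, so the 1 member has no background beside it.

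The highest left atrial Abcc8 values, in Tbx5G125R/+ replicates 1 and 5, came from libraries that also stood apart in GC trend. The GC trend of a library, the slope of its deviation from the mean of the table on the GC content of the transcript, was 0.66 log2 units per 10 percentage points in Tbx5G125R/+ replicate 1 and 0.39 in replicate 5, and between -0.28 and 0.04 in the other 8 left libraries. The GC content of Abcc8 is 57.3%, the highest of the members, against 46.5% for Kcnj15. Kcnj11 (57.1%) and Kcnj12 (56.5%) were close to Abcc8 in GC content. Their highest left values, 120 and 234, were in control 4, which had a trend of -0.16. Among the Tbx5G125R/+ left libraries both were highest in replicate 1, at 63.6 (Kcnj11) and 184 (Kcnj12). With GC trends removed their left differences were -0.10 (Kcnj11) and -0.0067 (Kcnj12). Without Tbx5G125R/+ replicate 1 the left difference of Abcc8 was 0.52 (limma adjusted p = 0.377). With the GC trend of each library removed, a choice made after seeing the data, it was 0.47 (limma adjusted p = 0.188), while that of Kcnj15 was 1.88 (limma adjusted p = 0.0392). Replicate 1 also had the lowest mitochondrial rRNA share of the left libraries (19.5%), the lowest summed fibroblast markers (28386) and the highest summed atrial cardiomyocyte markers (326592). The part of the GC trend and of the cell type markers in the Abcc8 values was not tested. Both libraries with a high trend were Tbx5G125R/+, so trend and genotype cannot be told apart there.

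**Figure D4:**
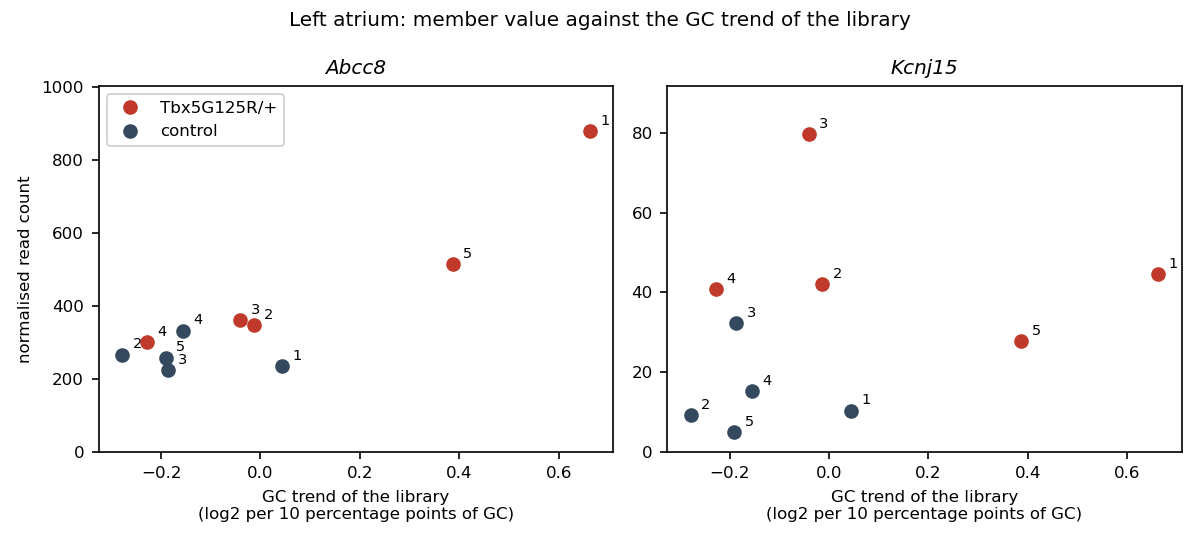
Normalised read count (y axis, from 0) of Abcc8 (left panel) and Kcnj15 (right panel) against the GC trend of the library (x axis, log2 units per 10 percentage points of GC) in the 10 left atrial libraries, labelled by replicate, with Tbx5G125R/+ in red and control in blue. The highest Abcc8 values, 880 and 515, belong to the libraries with trends of 0.66 and 0.39, both Tbx5G125R/+. The highest Kcnj15 value, 79.7, belongs to a Tbx5G125R/+ library with a trend of -0.04.

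The balance of sulfonylurea receptors was described by the ratio of Abcc9 to Abcc8 within a library, from which the scaling of the library cancels. In left atria it spanned 2.25 to 7.12 in Tbx5G125R/+ and 6.49 to 8.80 in controls. The mean log2 ratio was 2.21 ± 0.73 in Tbx5G125R/+ and 2.96 ± 0.17 in control left atria (SD, n = 5 each), a difference of -0.74 with an exact two-sided permutation p of 0.0238, or 0.119 adjusted over the 5 ratio tests. Without Tbx5G125R/+ replicate 1 the difference was -0.48, and over the fits that left out 1 library it reached -0.90, with adjusted p-values from 0.0794 to 0.238. The smallest p this design can give is 0.00794. In right atria the ratio spanned 0.738 to 0.922 in Tbx5G125R/+ and 0.649 to 1.01 in controls (exact permutation p = 0.690, adjusted p = 0.897). The right atrial ratios thus lay near 1 and the left ones above 2 in every library of either genotype. Abcc8 (57.3% GC) and Abcc9 (46.2% GC) differ in GC content and the libraries of the atria differ in mitochondrial rRNA share, so atrium and preparation cannot be told apart here.

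Relative to exon length, the order of the members differed by atrium. The members differ in GC content, from 41.2% for Kcnj2 to 57.3% for Abcc8, and the libraries of the atria differ in mitochondrial rRNA share. Atrium and preparation therefore cannot be told apart in this order. In right atria the mean order was Abcc8, Abcc9, Kcnj2, Kcnj12, Kcnj8 and Kcnj15 in both genotypes, from 684 to 10.3 normalised counts per kb in Tbx5G125R/+ and from 680 to 1.57 in controls. Among these, Abcc9 and Kcnj2, and Kcnj2 and Kcnj12, overlapped between libraries in both genotypes, whereas Kcnj8 lay below Kcnj12 and above Kcnj15 without overlap. In left atria Kcnj2 led with 744 per kb in Tbx5G125R/+ and 647 in controls, Abcc9 followed at 247 in Tbx5G125R/+ and 243 in controls, and both steps were free of overlap. Kcnj12, Abcc8 and Kcnj8 came next, between 44.5 and 61.3 per kb in Tbx5G125R/+ and between 32.5 and 53.7 in controls, and neighbours in that stretch overlapped. Kcnj11 and Kcnj15 were lowest, at 12.0 and 7.44 per kb in Tbx5G125R/+ and 12.8 and 2.27 in controls, and overlapped in both genotypes.

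**Figure D5:**
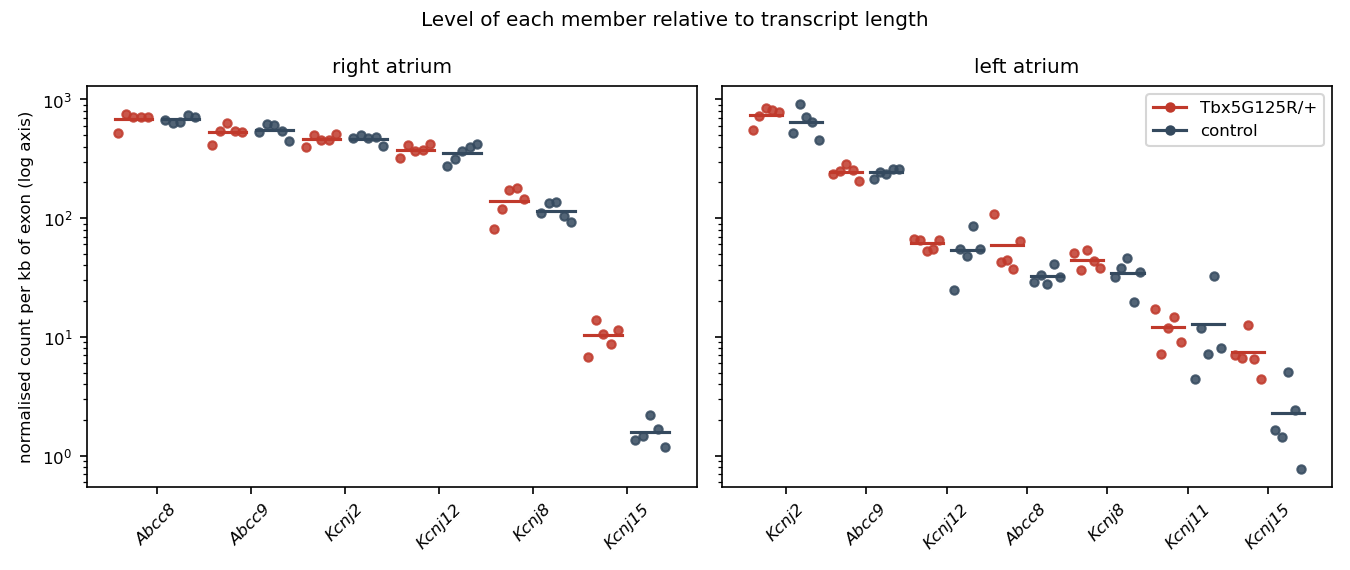
Normalised read count per kb of exon (y axis, log scale) of each member, ordered by its mean within the right and the left atrium (x axis), with Tbx5G125R/+ in red and control in blue; points are libraries and lines means of 5. Abcc8 leads in right atria at 684 per kb in Tbx5G125R/+ and 680 in controls, and Kcnj2 leads in left atria at 744 in Tbx5G125R/+ and 647 in controls. The atria were normalised separately, and atrium and preparation cannot be told apart.

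Of the rest of the inward rectifier family, only Kcnj3 and Kcnj5, the G protein-gated pores of the acetylcholine-activated current, reached the level for testing. Kcnj3 averaged 17911 ± 2138 in Tbx5G125R/+ and 15648 ± 2049 in control right atria (limma adjusted p = 0.313), and 40389 ± 14202 in Tbx5G125R/+ and 41895 ± 14864 in control left atria (limma adjusted p = 0.933). Kcnj5 averaged 8673 ± 784 in Tbx5G125R/+ and 9830 ± 1131 in control right atria (limma adjusted p = 0.285), and 2900 ± 830 in Tbx5G125R/+ and 2969 ± 506 in control left atria (limma adjusted p = 0.859; SD, n = 5 throughout). Neither passed. The other family genes, Kcnj1, Kcnj4, Kcnj6, Kcnj9, Kcnj10, Kcnj13, Kcnj14 and Kcnj16, had a mean under 10 normalised counts in both tables.

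Among 28 tested genes for other cardiac potassium channel pores and subunits, 3 were called higher and 2 lower in right atria. Over all genes 3.09% were called higher and 3.14% lower. The median log2 difference was -0.00, against -0.01 over all genes. Kcnf1, a silent subunit that modifies Kv2 channels, averaged 581 ± 105 in Tbx5G125R/+ and 163 ± 43.8 in control right atria (difference 1.86 ± 0.19, limma adjusted p = 6.16e-05). Kcnv2, a silent subunit too, averaged 254 ± 26.8 in Tbx5G125R/+ and 459 ± 66.3 in control right atria (-0.85 ± 0.11, limma adjusted p = 4.74e-04). Kcnn2, a calcium-activated SK channel, was called higher with a difference of 0.60 ± 0.14 (limma adjusted p = 0.0252), and Kcna1, a Kv1 pore, lower with -0.97 ± 0.21 (limma adjusted p = 0.0172; all SD or SE with n = 5 each). The call of Kcnn2 was lost in 6 of the 10 fits that left out 1 library, namely those without Tbx5G125R/+ replicates 2, 3, 4 or 5 or controls 2 or 3 (limma adjusted p from 0.0569 to 0.0640), and in a single model of all 4 groups (0.145). Kcna1 is on the neuron and glia marker list as well. With Kcna1 included, the 10 markers summed to 437 to 752 in Tbx5G125R/+ and 738 to 1110 in control right atria, ranges that overlapped. Without it, a choice made after seeing the values, the other 9 markers summed to 231 to 286 in Tbx5G125R/+ and 259 to 330 in controls. These ranges overlapped too, and the part of such cells was not tested.

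In left atria 1 of 26 tested genes of that list was called, against 1.2% of all genes. It was Kcnv2, at 235 ± 40.5 in Tbx5G125R/+ and 455 ± 136 in controls (SD, n = 5 each, with a difference of -0.92 ± 0.21, limma adjusted p = 0.0452). Its Tbx5G125R/+ values lay below all control values in both atria. The left call was lost in 8 of the 10 fits that left out 1 library, with adjusted p-values up to 0.106 (limma), all but those without Tbx5G125R/+ replicate 4 or control 3. Kcnf1 averaged 27.1 ± 9.35 in Tbx5G125R/+ and 19.0 ± 6.87 in control left atria (limma adjusted p = 0.395).

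Partners and trafficking factors of these channels were represented by 28 genes, of which 2 were called lower and none higher in right atria. The shares over all genes were 3.14% lower and 3.09% higher. Popdc3, which encodes a cyclic AMP-binding membrane protein of the Popeye family, known as partners of TREK channels, averaged 210 ± 10.5 in Tbx5G125R/+ and 320 ± 39.6 in control right atria (difference -0.60 ± 0.10, limma adjusted p = 0.00186). Bves, which encodes its relative Popdc1, averaged 896 ± 85.7 in Tbx5G125R/+ and 1193 ± 177 in control right atria (-0.40 ± 0.11, limma adjusted p = 0.0391; SD, n = 5 each). That call was lost in 8 of the 10 fits that left out 1 library, with an adjusted p of 0.0611 to 0.0991, all but those without Tbx5G125R/+ replicate 5 or control 1, and in the single model of all 4 groups (limma adjusted p = 0.292). In left atria 0 of the 28 were called by limma or edgeR, 5 had an unadjusted p under 0.05 and DESeq2 called 2. Of all 13192 genes, 16.6% had such a p and DESeq2 called 431. The most abundant of the 28 there were Dmd (dystrophin), Cav1 (caveolin) and Akap6, a kinase anchor, with log2 differences of -0.20, -0.25 and 0.21.

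Of 13 tested genes for polyamines, the pore blockers behind rectification, 1 was called higher and 1 lower in right atria. Among all genes these shares were 3.09% and 3.14%. Sms, the spermine synthase, averaged 413 ± 24.9 in Tbx5G125R/+ and 558 ± 46.8 in controls (difference -0.43 ± 0.07, limma adjusted p = 0.00347). Smox, an oxidase that degrades spermine, averaged 722 ± 81.5 in Tbx5G125R/+ and 557 ± 57.7 in controls (0.37 ± 0.09, limma adjusted p = 0.0325; SD, n = 5 each), a call lost in 7 of the 10 fits without 1 library, all but those without Tbx5G125R/+ replicates 2 or 3 or control 5 (limma adjusted p from 0.0524 to 0.0815). In the single model of all 4 groups neither Sms nor Smox was called (limma adjusted p = 0.415 and 0.414). In left atria 0 of 12 were called by limma, edgeR or DESeq2, and 2 had an unadjusted p under 0.05. Such a p was found for 16.6% of all left atrial genes. Sms stood there at 712 ± 185 in Tbx5G125R/+ and 1023 ± 308 in controls (limma adjusted p = 0.290).

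Of 17 genes for the supply of PIP2, the lipid that inward rectifiers need to open, 1 was called higher and 2 lower in right atria. Among all genes these shares were 3.09% and 3.14%. Plce1, a phospholipase that splits PIP2, averaged 1867 ± 231 in Tbx5G125R/+ and 2628 ± 165 in controls (difference -0.50 ± 0.08, limma adjusted p = 0.00270). Pip5k1b, a kinase that makes PIP2, averaged 1007 ± 47.2 in Tbx5G125R/+ and 1361 ± 162 in controls (-0.43 ± 0.08, limma adjusted p = 0.00830). Plcb1, a receptor-coupled phospholipase, averaged 253 ± 39.7 in Tbx5G125R/+ and 166 ± 21.8 in controls (0.60 ± 0.13, limma adjusted p = 0.0137; SD, n = 5 each). The calls of Pip5k1b and Plcb1 were lost in the single model of all 4 groups (limma adjusted p = 0.474 and 0.0514). In left atria 0 of 17 were called by limma, edgeR or DESeq2, and 4 had an unadjusted p under 0.05. Such a p was found for 16.6% of all left atrial genes.

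Of 20 tested genes of the adenine nucleotide shuttle and of glycolytic enzymes that associate with KATP channels, 0 were called in right atria by limma or edgeR. There, 5 had an unadjusted p under 0.05 and DESeq2 called 3. Of all 14288 genes, 21.3% had such a p and DESeq2 called 1312. The most abundant of the 20, Aldoa, Ckm and Ckmt2 (an aldolase and 2 creatine kinases), had log2 differences of -0.10, -0.37 and -0.18. In left atria 0 of 19 were called by limma, edgeR or DESeq2, and 1 had an unadjusted p under 0.05. Such a p was found for 16.6% of all left atrial genes. Of the other transporters of ABC subfamily C, which share their fold with the sulfonylurea receptors, 0 of 6 were called in either atrium by limma, edgeR or DESeq2. At an unadjusted p under 0.05 there were 2 in right and 0 in left atria, against 21.3% and 16.6% of all genes. Abcc5, the most abundant of these transporters, averaged 1735 ± 149 in Tbx5G125R/+ and 1516 ± 434 in control right atria (SD, n = 5 each, limma adjusted p = 0.427).

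Sinoatrial node markers differed between genotypes in right atria in sum: 2086 to 2579 in Tbx5G125R/+ and 2686 to 3073 in controls, over 10 markers, none at 0, of which 2 were called lower, the calcium channel genes Cacna1d and Cacna1g, and none higher. These ranges did not overlap, but they did without Cacna1d, Cacna1g or Tbx18, and the part of node tissue in the right atrial values of the members was not tested. The 9 atrial cardiomyocyte markers summed to 1128260 to 1546180 in Tbx5G125R/+ and 1235890 to 1616330 in control right atria, and none was called in either atrium. In left atria 8 of the 9 had a positive difference, with a median of 0.35 on the log2 scale. So had 10 of 12 tested pericyte and smooth muscle markers (median 0.53) and 0 of 8 fibroblast markers (median -0.33). The part of these cells in the left atrial values of the members was not tested.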

How the data were processed

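Per the submitters' notes, reads from libraries made from 300 ng of RNA were aligned with STAR to mm10 and normalised with DESeq2 (versions not given in the sources used here). The deposited values are a signal that the authors made by dividing read counts by the library's size factor, within each atrium. All nonzero values were whole multiples of 1 step per library (100% within 0.01 reads); in left Tbx5G125R/+ replicate 3 that step is so near 1 that the check has little power. The deposited fold changes and p-values of the authors were not used.

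Genes with a mean of at least 10 were tested with limma 3.58.1 (R 4.3.3) on log2(value + 1), with trended empirical Bayes moderation and p-values adjusted (Benjamini-Hochberg) over all tested genes of the atrium, or over genes tested in both tables for the difference between atria. Fold changes are on that scale. Subunit ratios were put to an exact permutation test (two-sided); 6 were planned and 5 could be made. Scripts were tested on simulated data. Alternatives were another pseudocount (0.5 or 5), another filter (none, or a minimum mean of 50), TMM, median ratio and quantile scaling, robust moderation, a replicate block, 1 model of all 4 groups, edgeR 4.0.16 and DESeq2 1.42.0 on recovered reads, leaving out each library and, chosen after seeing the data, GC and mitochondrial rRNA corrections and a block of right with left libraries.

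Members and gene lists were chosen with earlier results of these data known. Named genes were all members, Tbx5, up to 4 called genes of each list per atrium (otherwise up to 3 of highest mean), the Kir family, the 5 genes most like a called member, and 3 neighbours a side. Markers (Bmp10, the 5 called of the pericyte and smooth muscle list, and Cacna1d, Cacna1g and Tbx18 of the node list), left atrial Kcnf1 and right atrial Abcc5 were named besides. Annotation was GENCODE M21. Pore windows of the other Kcnj genes are not reported here.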

Additional observations from a re-analysis of the deposited data

Results flagged for a closer look

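In 3 of the 26 groups of 5 member values, 1 library stood farther from its nearest neighbour, relative to the range of the group, than Dixon's 95% critical value of 0.71. Chance gives about 1 in 20 such groups. Kcnj2 measured 2196 in right control 5, the lowest of its group, where the other controls lay at 2584 to 2731. Abcc8 measured 4185 in right Tbx5G125R/+ replicate 1, the lowest of its group, where the next value was 5729. Kcnj11 measured 120 in left control 4, the highest of its group, where the next value was 43.3. Their cause was not tested.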

How the results depend on the processing

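Of 308 refits of the 13 member results within an atrium, 277 kept direction and side of the threshold, 10 passed it anew, 21 changed sign and none lost a call. The right atrial count of called members was 1 except with a mean of at least 50 (0), a filter that left Kcnj15 out. Over all genes, 890 were called in right atria, 267 with all 4 groups in 1 model, and 600 to 1091 without 1 library. In left atria the count of called members was 0, and 1 at pseudocount 5 (Kcnj15 1.51), under the replicate block (1.81, adjusted p = 0.00780), with the mitochondrial rRNA covariate (1.79) and with GC trends removed (1.88), and 2 with DESeq2 (1.71) or all 4 groups in 1 model (1.81), where Abcc8 passed at 0.89 and 0.76. Without 1 library it was 0 to 1, with Kcnj15 at 1.52 to 2.15, and it was 1 without control 3 or Tbx5G125R/+ replicate 4. Over all genes, 158 were called in left atria, 693 under the block, 431 with DESeq2, 289 with the covariate, 1235 in the single model and 71 to 370 without 1 library. For the difference between atria, 8 genes were called, 2 with right and left libraries of 1 number as a block, and 0 to 11 without 1 library, and in no refit was a member.

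Signs changed only for uncalled values. In right atria Kcnj2 gave 3.8e-04 with TMM, 0.024 with quantile scaling, 0.0020 with edgeR and -0.067 to 0.043 without 1 library. Abcc8 gave 0.013 with TMM, 0.0093 with median ratios, 0.067 with quantile scaling, 0.023 with edgeR, 0.019 with DESeq2, 0.014 with GC trends removed and -0.042 to 0.096 without 1 library. Abcc9 gave -0.13 to 0.031 without 1 library. In left atria Kcnj11 gave -0.043 with DESeq2, -0.10 with GC trends removed and -0.090 to 0.61 without 1 library, Kcnj12 gave -0.0067 with GC trends removed, and Abcc9 gave -0.035 to 0.086 without 1 library. Without 1 library the left minus right difference was -0.070 to 0.37 for Kcnj12 and -0.010 to 0.15 for Abcc9. The log2 ratio difference was then -0.14 to 0.017 for Abcc9 over Abcc8 in right atria, and -0.38 to 0.49 for Kcnj8 over Kcnj11 and -0.13 to 0.24 for Kcnj12 over Kcnj2 in left atria. The causes were not tested.

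A pairing of Tbx5G125R/+ with control libraries of equal replicate number within an atrium was not settled. Their deviations correlated at -0.03 to 0.27 in right and 0.03 to 0.32 in left atria. Some libraries in each atrium correlated best with their own number, but not all. Under the replicate block 885 right and 693 left atrial genes were called, against 890 and 158 without it. Between right and left libraries of a number the correlations were -0.07 to 0.20 in Tbx5G125R/+, above 0.1 in 4 of 5, and 0.27 to 0.40 in controls, and 4 of 5 in each genotype matched their own number best. With those libraries as a block, a choice made after seeing the data, the left minus right difference had an adjusted p of 0.433 for Kcnj15 and 0.428 for Abcc8 (limma). Kcnj15 in controls rested on 5 to 34 reads per library and left Kcnj11 on 19 to 90, and the part of depth in their spread was not tested.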
